A study of Mus musculus with 24 samples.

Results

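Goblet cells release, beside gel-forming mucins, a set of smaller proteins that build, cut, guard or signal from the mucus. The mRNA of 8 genes for such non-mucin products was followed here, namely Fcgbp, Clca1, Zg16, Tff3, Agr2, Spink4, Retnlb and Sval1. They were chosen by name and found by matching the gene identifiers of the count files to GRCm38 symbols, and all 8 were present among 45513 genes. Polyadenylated RNA was sequenced from 24 libraries of mouse intestinal epithelium, which fell into 4 groups of 6 named here by genotype, WT or 9S/T-A, and by tissue, SI or colon. WT mice were homozygous for Atoh1(WT)CreERT2, in which a tamoxifen-inducible Cre lies downstream of the unchanged Atoh1 coding sequence at its own locus. 9S/T-A mice carried the same construct with 9 serine or threonine residues of ATOH1 changed to alanine, so that they cannot be phosphorylated there. Both genotypes carried the R26 tdTomato reporter on a C57BL/6 background and, per the methods, were 8 to 16 weeks old. All mice received 3 mg of tamoxifen, and EpCAM+ tdTom+ live cells were sorted after 24 h from crypt preparations of proximal small intestine (SI) and of colon. The sort takes every cell that had switched the reporter on through Atoh1, so goblet cells are not separated from Paneth cells or secretory precursors, and mice without the Cre insertion were not among the groups.

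In each tissue, goblet cells fill with granules of MUC2, which unfolds on release into the mucus gel, and the other products are released with it or act while it is made. ATOH1 is the transcription factor that commits intestinal crypt cells to the secretory fate from which goblet and Paneth cells arise. FCGBP is a large protein of repeated von Willebrand factor D domains that is bound within the mucus, and CLCA1 is a secreted metalloprotease that processes it. ZG16 is a small lectin that binds Gram-positive bacteria, TFF3 is a trefoil peptide of epithelial repair, and RETNLB (RELMβ) is an antibacterial, cytokine-like protein. AGR2 is a protein disulphide isomerase that stays mostly in the endoplasmic reticulum and is needed to make MUC2, while SPINK4 has the fold of a Kazal-type serine protease inhibitor. SVAL1 belongs to the family of prolactin-inducible protein.

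The 8 genes lie at separate loci, and positions are in GRCm38 as the count files give them. Fcgbp (ENSMUSG00000047730) is at chromosome 7, 28071236 to 28120862, and Zg16 (ENSMUSG00000049350) is on the same chromosome at 127050156 to 127051977. Clca1 (ENSMUSG00000028255) is at chromosome 3, 145003817 to 145032776. Tff3 (ENSMUSG00000024029) is at chromosome 17, 31125306 to 31129646, and Retnlb (ENSMUSG00000022650) at chromosome 16, 48816856 to 48818891. Agr2 (ENSMUSG00000020581) is at chromosome 12, 35992907 to 36004087. Spink4 (ENSMUSG00000028415) is at chromosome 4, 40920052 to 40931395, and Sval1 (ENSMUSG00000029865) at chromosome 6, 41951630 to 41956098. All are protein coding, and their exons span from 477 bases in Spink4 to 10497 bases in Fcgbp. Several sit beside relatives: Clca2 and Clca4a are 37.5 kb and 28.8 kb from Clca1, Tff2 is 11.4 kb from Tff3, and Sval3 is 12 kb from Sval1. The gene 9530053A07Rik starts 8.6 kb beyond the end of Fcgbp on the same strand. Reads with several possible positions were counted at 1 of them, so counts of members with close relatives carry that uncertainty.

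The bases ahead of 3 of the 8 genes could be read from RefSeq promoters of GRCm38.p6. They are shown because ATOH1 binds E-boxes (CANNTG), and no other member had a window in that set. Sval1 is the member with the largest genotype difference, and Fcgbp and Agr2 are the pair with the lowest correlation between SI libraries. The windows were not chosen for these results. Each runs 5′ to 3′ on the plus strand and ends ahead of both the RefSeq start and the start in the count files, with every CANNTG match in capitals.
Sval1, chr6:41951378-41951627: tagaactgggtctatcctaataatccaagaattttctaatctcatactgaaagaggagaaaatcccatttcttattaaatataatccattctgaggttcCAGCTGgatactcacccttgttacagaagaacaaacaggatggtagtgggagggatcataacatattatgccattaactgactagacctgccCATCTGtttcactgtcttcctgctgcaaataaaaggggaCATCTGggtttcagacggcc
Fcgbp, chr7:28070986-28071235: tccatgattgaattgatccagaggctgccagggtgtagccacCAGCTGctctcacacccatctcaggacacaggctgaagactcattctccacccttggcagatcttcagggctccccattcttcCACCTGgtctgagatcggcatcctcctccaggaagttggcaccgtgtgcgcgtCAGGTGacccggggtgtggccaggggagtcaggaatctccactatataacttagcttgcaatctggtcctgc
Agr2, chr12:35992675-35992906: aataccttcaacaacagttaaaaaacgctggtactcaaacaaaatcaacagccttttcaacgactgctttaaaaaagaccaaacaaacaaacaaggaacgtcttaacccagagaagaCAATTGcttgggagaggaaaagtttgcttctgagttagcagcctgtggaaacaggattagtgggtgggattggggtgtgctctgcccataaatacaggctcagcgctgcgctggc
The Sval1 window holds 3 matches, the Fcgbp window 3 and the Agr2 window 1. CANNTG reads the same on both strands and occurs in 66.2% of 32851 RefSeq windows of 250 bases and in 63.8% of windows of 232 bases, the length used for Agr2. CAGCTG, which is a CANNTG, occurs once in the Sval1 window, once in the Fcgbp window and in 13.0% of all 250-base windows. CAGATG, searched on both strands and also a CANNTG, occurs 2 times in the Sval1 window, in its reverse form CATCTG, and in 14.4% of all 250-base windows. These are matches of letters, and binding at them was not measured.

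The libraries held 36 M to 65.8 M counts each (M, the prefix mega), so even the rarest member, Retnlb in 9S/T-A SI, rested on at least 25 counts in each library. CPM are counts per M after TMM scaling of the 24 libraries together, and TPM, transcripts per M, which divide by length, are used where genes are compared with each other. Markers of the sorted cells were high. Muc2 averaged 27638 CPM in WT SI and 12171 CPM in WT colon, and Lyz1 of Paneth cells averaged 26128 CPM in WT SI. Leukocyte and stromal markers were low, with 10 leukocyte genes summing to at most 45.9 CPM in any library and 10 stromal genes to at most 20.2 CPM, whereas 14 absorptive cell markers summed to between 4615 and 8090 CPM in WT SI and between 2192 and 2820 CPM in WT colon. Atoh1 itself, in both genotypes transcribed from the knock-in allele, averaged 92.3 ± 15.5 CPM in the WT libraries of SI and 75 ± 11 CPM in the 9S/T-A ones (SD, n = 6). The colon means were 103 ± 15.7 CPM for WT and 85.9 ± 13.6 CPM for 9S/T-A. Its genotype difference had an edgeR adjusted p of 0.23 in SI and 0.558 in colon. In sorted bulk samples, fewer goblet cells and less RNA per goblet cell cannot be told apart.

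The 8 genes together were a large part of the mRNA of these cells in SI and a smaller part in colon. In SI they took 26.2% ± 2.26 of all counts of WT libraries and 29.9% ± 3.16 of 9S/T-A libraries (SD, n = 6). In colon the shares were 4.46% ± 0.803 for WT and 5.76% ± 1.66 for 9S/T-A. The lowest SI library held 24.1% and the highest colon library 8.14%. Per length, they made up 30.2% of the TPM in WT SI and 6.65% in WT colon.

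The order of the products per length differed between the tissues. In WT SI, Zg16 was the most abundant gene of the library at 182717 ± 15506 TPM and Tff3 came next at 84250 ± 6517 TPM (SD, n = 6). Fcgbp followed among the members, at 16035 ± 2609 TPM and rank 11 over all genes. Clca1 at 8646 ± 1378 TPM and Spink4 at 7461 ± 1079 TPM overlapped between libraries, Agr2 was lower at 2983 ± 711 TPM, and Sval1 and Retnlb were below 9 TPM. Zg16 and Tff3 held 60.4% and 27.9% of the members' summed TPM there. Among the members in WT colon, Zg16 was still first at 24087 ± 3850 TPM (rank 2 over all genes) and Tff3 second at 12093 ± 1781 TPM (rank 6). They were followed by Spink4, Agr2, Clca1 and Sval1, from 8386 to 4926 TPM, and each of these overlapped its neighbour in the order. Fcgbp was at 2392 ± 669 TPM and Retnlb at 701 ± 472 TPM. Zg16 and Tff3 together held a smaller part than in SI, at 36.1% and 18.1%, while the share of Spink4 was 2.49% in WT SI and 12.7% in WT colon, that of Agr2 0.989% and 11.3%, and that of Sval1 0.00288% and 7.42%. In SI the shares of 9S/T-A and WT libraries, which were not tested, were 62.2% ± 1.98 for Zg16 against 60.4% ± 0.788 and 26.1% ± 2.12 for Tff3 against 27.9% ± 1.42 (SD, n = 6). In 9S/T-A colon Spink4 came second among the members, at 13331 ± 2229 TPM and 17.1% ± 2.83 of their sum, ahead of Clca1 at 10226 ± 5005 TPM and Tff3 at 9810 ± 3170 TPM, whose libraries overlapped.

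**Figure D1:**
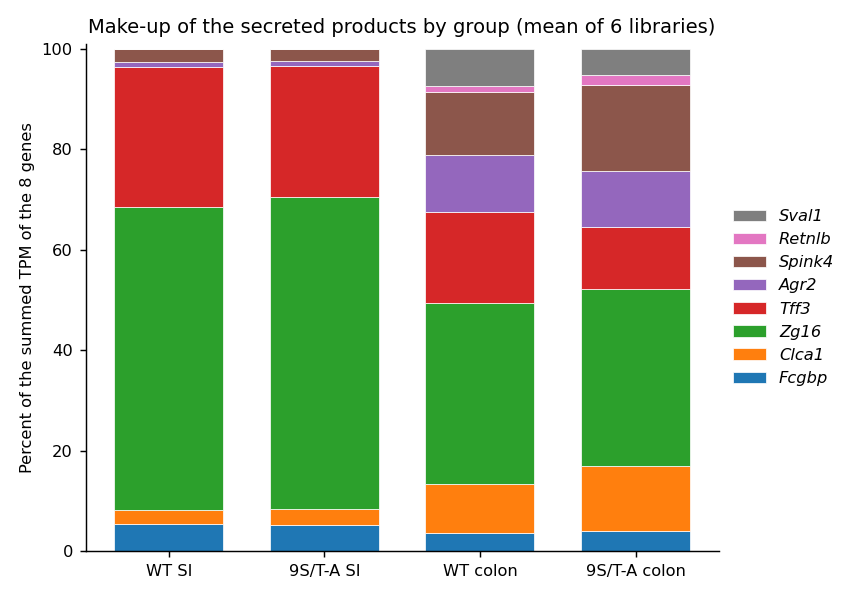
Stacked bars give the percent of the summed TPM of the 8 genes that each gene took, as the mean of 6 libraries in each of the 4 groups. Zg16 and Tff3 fill most of both SI bars, and Agr2, Spink4, Clca1, Sval1 and Retnlb are wider in both colon bars.

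Between tissues, 7 of the 8 genes were called different in each genotype, 5 lower and 2 higher in colon. Colon cells had less Fcgbp, Zg16, Tff3, Clca1 and Spink4, and more Retnlb and Sval1, while Agr2 did not pass the test. The background was high, since 63.6% of 16979 genes tested were called in WT and 60.9% of 16938 genes in 9S/T-A (edgeR adjusted p under 0.05), so the count of members called is not a result about them. The members' median log2 fold change of colon over SI, taken over values of both signs, was -1.33 in WT and -1.02 in 9S/T-A. Over all genes tested the medians were 0.026 and 0.042. By size without sign, the members were spread among all genes tested in WT. Agr2 was at percentile 14.1, Spink4 at 77.2 and Clca1 at 86, and Fcgbp, Tff3, Zg16, Retnlb and Sval1 ran from 95.2 to 99. The CPM of the SI and colon groups did not overlap for 7 members in WT and 6 in 9S/T-A, with 43.5% and 41.1% of genes tested. These values rest on TMM scaling. With plain library totals in its place the median of all genes moved to 0.74 in WT and 0.85 in 9S/T-A. By mean TPM, which is not TMM-scaled, the log2 ratio of colon to SI in WT was -2.74 for Fcgbp, -2.92 for Zg16, -2.80 for Tff3 and -0.41 for Clca1, and Clca1 was at -0.079 in 9S/T-A.

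Of the members, Fcgbp, Zg16 and Tff3 were lower in colon by the most. Fcgbp ranged from 121393 to 201596 CPM with a median of 133690 in WT SI, and from 5814 to 14793 CPM with a median of 10304 in WT colon. Its log2 fold change of colon over SI was -3.96 (SE 0.269, adjusted p 4.47e-09) in WT and -3.80 (SE 0.33) in 9S/T-A. Fcgbp took more counts than any other gene in SI, 12% of the WT total, and is the longest of the 8. Zg16 had a lowest, median and highest value of 87143, 100086 and 123969 CPM in WT SI and of 4433, 6009 and 7457 CPM in WT colon. Its log2 fold change was -4.14 (SE 0.197, adjusted p 6.37e-11). Tff3 ran from 29586 to 41329 CPM around a median of 38347 in WT SI and from 1832 to 2998 CPM around a median of 2388 in WT colon, and its fold on the log2 scale was -4.02 (SE 0.171, adjusted p 1.75e-11). Every SI library was above every colon library for these 3 genes in both genotypes. Tff3 had the lowest fold of any member, at -4.51 (SE 0.273) in 9S/T-A.

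Clca1 and Spink4 were lower in colon by less, and Agr2 did not pass the test. Clca1 ranged from 23294 to 36429 CPM with a median of 27570 in WT SI and from 5830 to 15580 CPM with a median of 8666 in WT colon (log2 fold change -1.62, SE 0.22, adjusted p 1.06e-05). Spink4 ranged from 2859 to 3677 CPM with a median of 3078 in WT SI and from 1343 to 1813 CPM with a median of 1478 in WT colon. Its log2 fold change was -1.05 (SE 0.108, adjusted p 5.66e-07) in WT and -0.66 (SE 0.168, adjusted p 0.00313) in 9S/T-A, where plain library totals turned the value to 0.15. By TPM the direction of Spink4 turned in both genotypes, with a log2 ratio of means of 0.17 in WT and 0.65 in 9S/T-A. Muc2, for reference, had a log2 fold change of -1.22 (SE 0.151) in WT, between those of Clca1 and Spink4. Agr2 ranged from 2756 to 3876 CPM around a median of 3375 in WT SI and from 3249 to 4581 CPM around a median of 3523 in WT colon, and the groups overlapped. Its log2 fold change was 0.11 with a 95% interval from -0.16 to 0.39 in WT and from -0.17 to 0.40 in 9S/T-A. Plain library totals, with the shift of all genes given above, made it 0.82 in WT and 0.91 in 9S/T-A, and both then passed the test, and by mean TPM the log2 ratio was 1.32 and 1.42.

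Retnlb and Sval1 were low in SI and far higher in colon. Retnlb had a lowest, median and highest value of 0.905, 1.89 and 4.95 CPM in WT SI and of 31.8, 196 and 423 CPM in WT colon. It was 84.9-fold higher in WT colon (log2 fold change 6.41, SE 0.597, adjusted p 1.74e-07) and 311-fold higher in 9S/T-A colon (8.28, SE 0.479, adjusted p 1e-09). Sval1 ran from 4.1 to 5.27 CPM around a median of 4.82 in WT SI and from 849 to 1502 CPM around a median of 1202 in WT colon. It was 246-fold higher in WT colon (log2 fold change 7.94, SE 0.194, adjusted p 5.26e-14) and 57.1-fold higher in 9S/T-A colon (5.84, SE 0.200). Its neighbour and relative Sval3 was also higher in WT colon (7.58, SE 0.566), at a mean of 2.04 CPM against 0.0106 CPM in WT SI, whereas Sval2 and Pip had no count in any library. In the other families, Retnla and Retnlg, the neighbours of Retnlb, did not average above 0.133 CPM in any group.

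**Figure D2:**
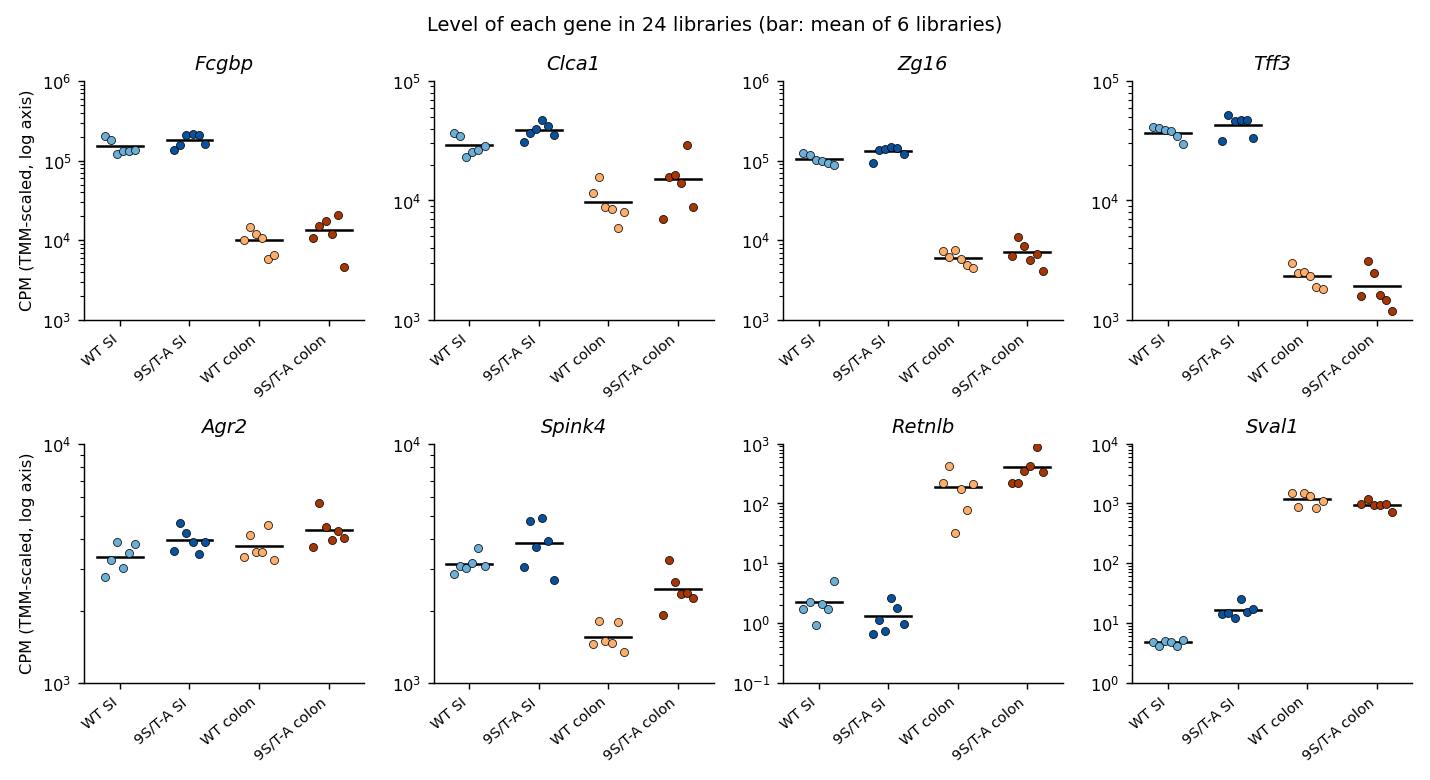
Each panel plots 1 gene, with TMM-scaled CPM on a log axis, 1 point per library and a bar at the mean of the 6 libraries of each genotype in each tissue. Within a genotype, points of SI and colon are apart for every gene but Agr2 and, in 9S/T-A, Spink4. The Sval1 points of 9S/T-A SI sit above all those of WT SI.

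**Figure D3:**
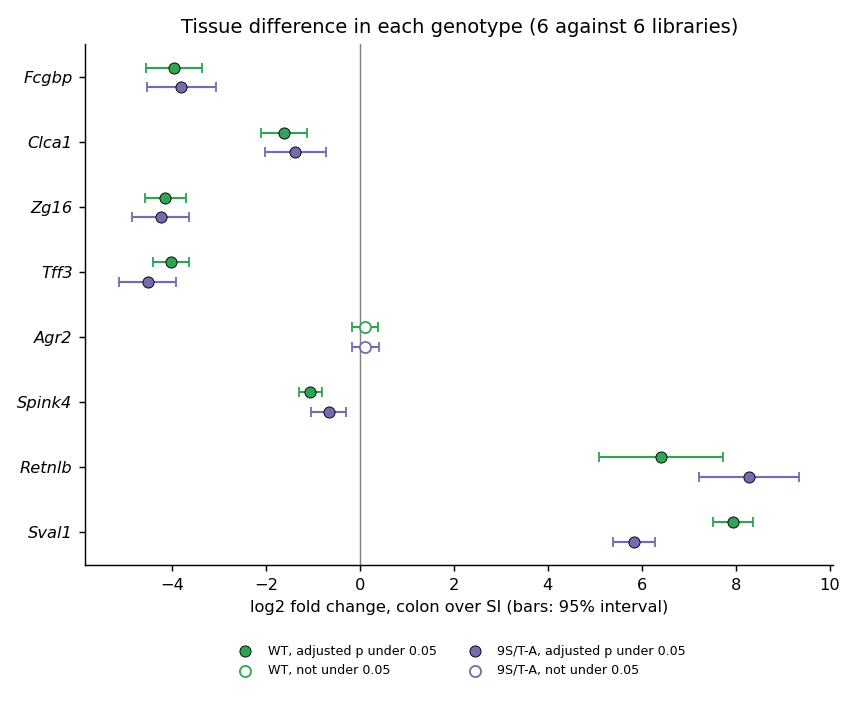
The log2 fold change of colon over SI is on the horizontal axis for each of the 8 genes, with 95% intervals, in WT and in 9S/T-A. Sval1 and Retnlb lie far to the right, Fcgbp, Zg16 and Tff3 to the left near -4, and Agr2 at 0.11.

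Markers of other cells also differed by tissue. Of 14 Paneth cell markers 12 were lower in WT colon, and their summed level ran from 63092 to 104998 CPM in WT SI and from 9941 to 22191 CPM in WT colon, where Mptx1, at 14381 CPM, made up most of it. Of 14 absorptive cell markers 10 were lower and 3 higher in WT colon. The 10 leukocyte markers summed to between 24.7 and 41.9 CPM in WT SI and between 6.02 and 8.56 CPM in WT colon. Their part in the tissue differences of the members was not tested.

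The study asked what the loss of phosphorylation sites in ATOH1 does to the cells that express it, and the genotypes were compared within each tissue. In SI, 1 of the 8 genes was called, against 1.94% of 16236 genes tested and 1.03% called higher. That gene was Sval1. It had a lowest, median and highest value of 4.1, 4.82 and 5.27 CPM in the WT libraries and of 12.1, 14.9 and 25.3 CPM in the 9S/T-A libraries, and the groups did not overlap, which held for 2.07% of genes tested. The level was 3.5-fold higher in 9S/T-A (log2 fold change 1.81, SE 0.157, edgeR adjusted p 1.5e-05). Without any 1 of the 12 libraries it stayed between 1.65 and 1.88. Even so, Sval1 in 9S/T-A SI remained a low transcript at 28.4 ± 7.34 TPM (SD, n = 6), far below its 4004 ± 387 TPM in 9S/T-A colon.

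The other 7 members did not pass the test in SI. Of these, 6 had positive values, and Clca1 was the highest at a log2 fold change of 0.41 (95% interval from 0.074 to 0.74, adjusted p 0.198). Clca1 ranged from 23294 to 36429 CPM in the WT libraries and from 30855 to 47097 CPM, with a median of 38167, in the 9S/T-A libraries, and the groups overlapped. Zg16 was at 0.34, Fcgbp and Spink4 at 0.28, Agr2 at 0.23 and Tff3 at 0.20, and the intervals of these 5 ran from -0.14 at the lowest to 0.70 at the highest. Spink4 ranged from 2701 to 4902 CPM around a median of 3816 in the 9S/T-A libraries, where WT ran from 2859 to 3677 CPM. Fcgbp ran from 136801 to 216604 CPM around a median of 187468. Zg16 had a lowest, median and highest value of 92650, 138701 and 149537 CPM, Tff3 of 31411, 46485 and 52087 CPM, and Agr2 of 3469, 3884 and 4649 CPM. All 3 overlapped the WT libraries, and the lowest 9S/T-A library of Zg16, Tff3, Fcgbp and Clca1 was replicate 2. Retnlb was the single negative member at -0.79 (95% interval from -1.68 to 0.09, adjusted p 0.353), with a median of 1.89 CPM for WT and 1.03 CPM for 9S/T-A. The median of the 8 members was 0.28, against 0.00023 over all genes tested, and Muc2 was at 0.27 (SE 0.157, adjusted p 0.434).

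In colon, a different gene passed. Spink4 was the 1 of 8 members called, against 0.318% of 16997 genes tested and 0.229% called higher. It had a lowest, median and highest value of 1343, 1478 and 1813 CPM for WT and of 1912, 2359 and 3276 CPM for 9S/T-A. The groups did not overlap, which held for 0.906% of genes tested. The log2 fold change was 0.68 (SE 0.122, edgeR adjusted p 0.0287), a 1.61-fold difference. The call was close to the threshold. It was lost without WT colon replicate 2, 4, 5 or 7 or without 9S/T-A colon replicate 4 or 5, where the adjusted p rose to at most 0.0874 and the log2 fold change stayed between 0.59 and 0.76.

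The other colon products varied more between libraries. Retnlb had a lowest, median and highest value of 31.8, 196 and 423 CPM for WT and of 217, 346 and 891 CPM for 9S/T-A. Its log2 fold change of 1.12 had a 95% interval from 0.0097 to 2.24 and an adjusted p of 0.545. Clca1 was at 0.67 (95% interval from -0.025 to 1.36, adjusted p 0.567), with values from 5830 to 15580 CPM in WT and from 6966 to 29336 CPM in 9S/T-A. Fcgbp was at 0.45 (adjusted p 0.794), with 9S/T-A values from 4643 to 20744 CPM around a median of 13457, the lowest in replicate 7, the highest in replicate 6. Zg16 was at 0.25, with 9S/T-A values from 4059 to 11130 CPM around a median of 6525, and Agr2 at 0.24, from 3705 to 5623 CPM around 4174. Within sexes, the log2 ratio of the 9S/T-A mean CPM to the WT mean for Fcgbp was 0.007 in females and 0.71 in males, and for Clca1 it was 0.087 and 1.02, with 3 libraries a side and no test. In the same order it was -0.13 and 0.51 for Zg16, -0.7 and 0.036 for Tff3, and -0.55 and -0.052 for Sval1. For Retnlb it was 0.69 and 1.45, for Spink4 0.61 and 0.7, and for Agr2 0.21 and 0.23. Tff3 at -0.27 and Sval1 at -0.29 were the members with negative values (adjusted p 0.857 and 0.66). Tff3 ran from 1184 to 3123 CPM around a median of 1607 in 9S/T-A, against 1832 to 2998 CPM for WT. Sval1 ran from 849 to 1502 CPM for WT and from 726 to 1183 CPM for 9S/T-A, and the groups overlapped. The median of the 8 was 0.35 against 0.0049 over all genes tested, and Muc2 was at 0.46 (SE 0.130, adjusted p 0.223).

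**Figure D4:**
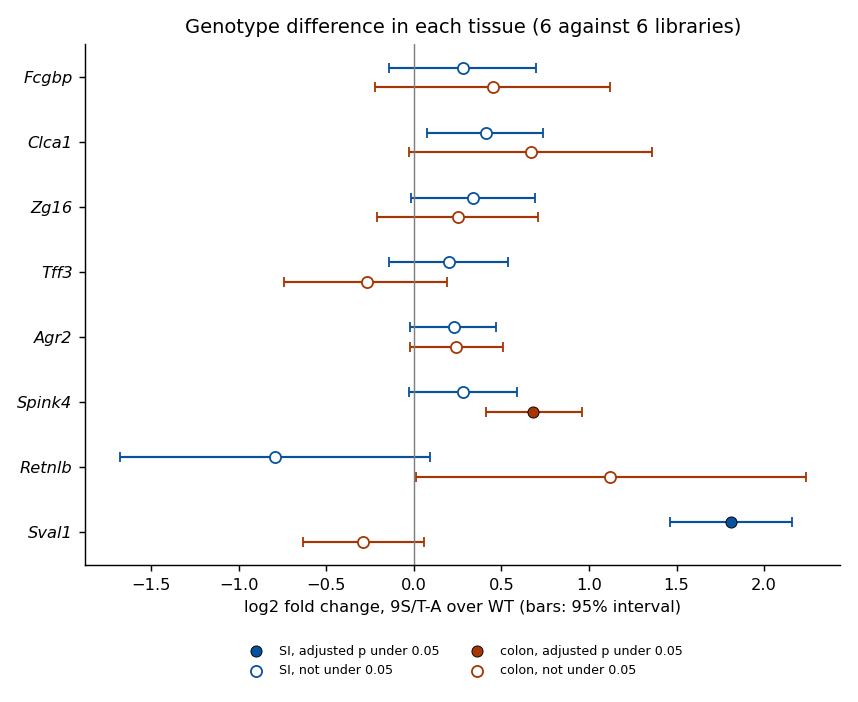
The log2 fold change of 9S/T-A over WT is on the horizontal axis for each of the 8 genes, with 95% intervals, in SI and in colon. Filled points passed the test, which held for Sval1 in SI at 1.81 and for Spink4 in colon at 0.68.

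Whether the genotype difference itself differed between the tissues was tested over all 24 libraries. Of the 8 members, 1 was called, against 0.412% of 17953 genes tested. Sval1 had a difference of differences, colon minus SI, of -2.11 on the log2 scale (SE 0.231, adjusted p 1.62e-05). In WT it was 246-fold higher in colon, and in 9S/T-A 57.1-fold. For Retnlb the value was 1.88 (SE 0.707, adjusted p 0.323), and with a block for SI and colon of the same genotype and number it was 2.04 (SE 0.398, adjusted p 0.0169) and passed, where 1.9% of genes tested were called. Spink4 at 0.38 (adjusted p 0.569) did not pass, so that its call in colon and its 0.28 in SI were not shown to differ.

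Relative to Muc2, the members' values in SI came close to 0 but for Sval1 and Retnlb. With the Muc2 count of each library as its scale, 1 of 8 members was called in SI, against 1.17% of 16235 genes tested. The median of all genes there moved to -0.25, and that of the members was 0.015. Sval1 was higher by 1.53 (SE 0.213, adjusted p 0.000211), Retnlb was at -1.10 (SE 0.351, adjusted p 0.162), and the other 6 lay between -0.067 and 0.16. In colon Muc2 itself had a value of 0.46 that did not pass the main test (edgeR adjusted p 0.223). It passed by DESeq2 and with the replicate block (0.46, edgeR adjusted p 0.0282), by which 2.27% of genes tested were called. Scaling by Muc2 moved the median of all genes in colon to -0.45, and 50% of 16996 genes tested were called. Of the members, Tff3 at -0.77 (SE 0.195, adjusted p 0.0106) and Sval1 at -0.75 (SE 0.153, adjusted p 0.00693) were called lower, Spink4 was at 0.22 and Retnlb at 0.59. With the replicate block this scale called 78.7% of genes tested in colon, and Zg16 at -0.25 (adjusted p 0.0283) and Retnlb at 0.87 (adjusted p 9.43e-09) passed beside Tff3 and Sval1. Without 9S/T-A colon replicate 7 it called 80.7%, and Agr2 at -0.31 (adjusted p 0.0499) was added, and without 9S/T-A SI replicate 2 it called 41% in SI, where Retnlb at -1.05 (adjusted p 0.0364) was added.

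Genes that were no members but share the mucus or the cell were read from fixed lists. Of 19 relatives of the members found in the files, 10 could be tested in SI. EdgeR called 2, both lower in 9S/T-A, where it called 1.94% of 16236 genes tested. An unadjusted p under 0.05 was found for 5 of the 10 and for 2556 of all genes tested. DESeq2 called 3 lower, with Clca3a1 added, and 4.46% of genes with an adjusted p. Clca3b averaged 488 CPM for WT and 247 CPM for 9S/T-A (log2 fold change -0.99, SE 0.149, adjusted p 0.00245). Clca3a2 averaged 13.2 and 5.86 CPM (-1.17, SE 0.149, adjusted p 0.000623). These relatives and Clca1 had values of opposite sign. In colon 0 of 12 relatives tested were called by edgeR, 0 had an unadjusted p under 0.05 and DESeq2 called 0. Of all 16997 genes tested in colon, 1497 had an unadjusted p under 0.05. Of 11 mucus layer partners, Klk1, a serine protease, was called higher in SI (0.67, SE 0.113, adjusted p 0.00548). The lectin Itln1 (-0.98, SE 0.179, adjusted p 0.00958), the antimicrobial ribonuclease Ang4 (-1.11, SE 0.188, adjusted p 0.00607) and the IgA carrier Pigr (-0.60, SE 0.118, adjusted p 0.0166) were called lower. In SI 6 of the 11 had an unadjusted p under 0.05. DESeq2 called 6 there, 1 higher and 5 lower, with Tgm2 and Dmbt1 added among the lower. In colon, edgeR called 0 of the 11, 1 had an unadjusted p under 0.05, and DESeq2, by which 1.13% of genes with an adjusted p were called in colon, called 1, Muc2.

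Of 30 other goblet cell genes, edgeR called 4 higher in 9S/T-A SI and 0 lower, where 1.03% of 16236 genes tested were called higher. Of the 30, 27 had positive values, with a median of 0.26. An unadjusted p under 0.05 was found for 16 of them and for 2556 of all genes tested. DESeq2 called 9, all higher, against 4.46% of genes with an adjusted p. The 4 called by edgeR were Guca2a, the precursor of guanylin (0.79, SE 0.128, adjusted p 0.00422), Hepacam2 (0.47, SE 0.0923, adjusted p 0.0161), Rep15 (0.37, SE 0.0769, adjusted p 0.0215) and the protease Capn9 (0.43, SE 0.0989, adjusted p 0.0402). Spdef, a regulator of goblet cell maturation, was at 0.26 (adjusted p 0.269). In colon 0 of the 30, which include Muc2, were called by edgeR, DESeq2 called 1, Muc2, and the median was 0.071. There 2 of the 30 had an unadjusted p under 0.05, as did 1497 of 16997 genes tested.

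Markers of other cells were read beside these values. Over all genes tested between genotypes, 2556 of 16236 had an unadjusted p under 0.05 in SI and 1497 of 16997 in colon. EdgeR called 1.94% of genes tested in SI and 0.318% in colon. DESeq2 called 4.46% and 1.13% of genes with an adjusted p. Of 14 Paneth cell markers 5 were called lower in 9S/T-A SI, among them Itln1 again and led by Mptx2 (-4.64, SE 0.328, adjusted p 1.69e-06), and 0 higher. The 14 had 1 positive value, a median of -0.53, 9 unadjusted p under 0.05 and 7 DESeq2 calls, all lower. Their summed level ran from 63092 to 104998 CPM for WT and from 50568 to 78874 CPM for 9S/T-A, while Lyz1 was at -0.15 (adjusted p 0.645). Of 14 enteroendocrine markers 1 was called lower, Gcg (-2.65, SE 0.301, adjusted p 0.000227), and their summed level ran from 233 to 555 CPM in WT and from 192 to 449 CPM in 9S/T-A. They had 1 positive value, a median of -0.72, 8 unadjusted p under 0.05 and 3 DESeq2 calls, all lower. Of 9 tuft cell markers tested 1 was called lower, Pou2f3 (-1.18, SE 0.239, adjusted p 0.0197), and the 10 listed summed to between 74.3 and 171 CPM for WT and between 26.2 and 149 CPM for 9S/T-A. The 9 tested had 0 positive values, a median of -0.81, 4 unadjusted p under 0.05 and 2 DESeq2 calls, both lower. Of 14 absorptive cell markers 1 was called lower, Ceacam1 (-0.71, SE 0.159, adjusted p 0.0341), 11 had positive values, and their sum ran from 4615 to 8090 CPM for WT and from 6571 to 9112 CPM for 9S/T-A. They had 4 unadjusted p under 0.05, and DESeq2 called 2 higher and 1 lower. Of 10 cell cycle markers edgeR and DESeq2 each called 0, with 10 negative values, a median of -0.35 and 6 unadjusted p under 0.05, and sums of 411 to 558 CPM for WT and 302 to 495 CPM for 9S/T-A. Of 10 stem cell markers edgeR called 0, 9 had negative values, 5 had an unadjusted p under 0.05, and DESeq2, by which 4.46% of genes with an adjusted p were called in SI, called 1, Smoc2. In colon, edgeR called 0 markers in each of these lists. The 10 cell cycle markers all had positive values, with a median of 0.37, 4 unadjusted p under 0.05 and 0 DESeq2 calls, and summed to between 193 and 302 CPM for WT and between 206 and 377 CPM for 9S/T-A. The 14 enteroendocrine markers all had negative values, with a median of -0.51 and 7 unadjusted p under 0.05, DESeq2 called Pax4 lower, and their sum ran from 89.4 to 158 CPM for WT and from 71.1 to 141 CPM for 9S/T-A. The 9 tuft cell markers tested were negative too, with a median of -0.50, 1 unadjusted p under 0.05 and 0 DESeq2 calls. Of the 14 Paneth cell markers 10 had positive values, with 6 unadjusted p under 0.05 and 0 DESeq2 calls, and their sum ran from 9941 to 22191 CPM for WT and from 13987 to 26423 CPM for 9S/T-A. For absorptive and stem cell markers in colon, 1 each had an unadjusted p under 0.05 and DESeq2 called 0. The part of these cells in the member values was not tested in either tissue.

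Genes far higher in colon than in SI were also read for their genotype values in SI. Of the 6 other listed genes with a log2 fold change of colon over SI above 6 in WT, a cut chosen after values were seen, 5 were tested in SI and edgeR called 0 higher. Best2, Tgm3, Car1 and B3gnt6 lay between -0.44 and 0.42, but each averaged below 1 CPM in WT SI and had an SE from 0.246 to 0.343, and Mptx1 was called lower at -0.71 (SE 0.122, adjusted p 0.00658). Sval3 was too low to be tested there, at 0.0106 CPM for WT and 0.042 CPM for 9S/T-A.

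Within groups, several members varied together. Correlations were taken over libraries after removing group means from log2(CPM + 1), and since libraries share depth, scale and goblet cell share, they are descriptions. Over the 12 SI libraries Fcgbp and Clca1 had an r of 0.94, Zg16 and Tff3 of 0.86, and Fcgbp and Zg16 of 0.83, whereas Agr2 was at -0.43 with Fcgbp and -0.34 with Clca1. Over the 12 colon libraries Agr2 and Spink4 had an r of 0.95, Zg16 and Tff3 of 0.94, Fcgbp and Clca1 of 0.78, and Fcgbp and Zg16 of 0.75. Fcgbp and Tff3 had an r of 0.57 in SI and 0.61 in colon. The r of Agr2 and Spink4 was 0.32 in SI. Of the 28 pairs, 9 were above 0.5 in SI and 10 in colon. Muc2 had an r of 0.87 with Fcgbp, 0.88 with Clca1 and 0.86 with Zg16 in SI, and of 0.64, 0.16 and 0.52 in colon. Agr2 had an r of -0.13 and 0.19 with Muc2.

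**Figure D5:**
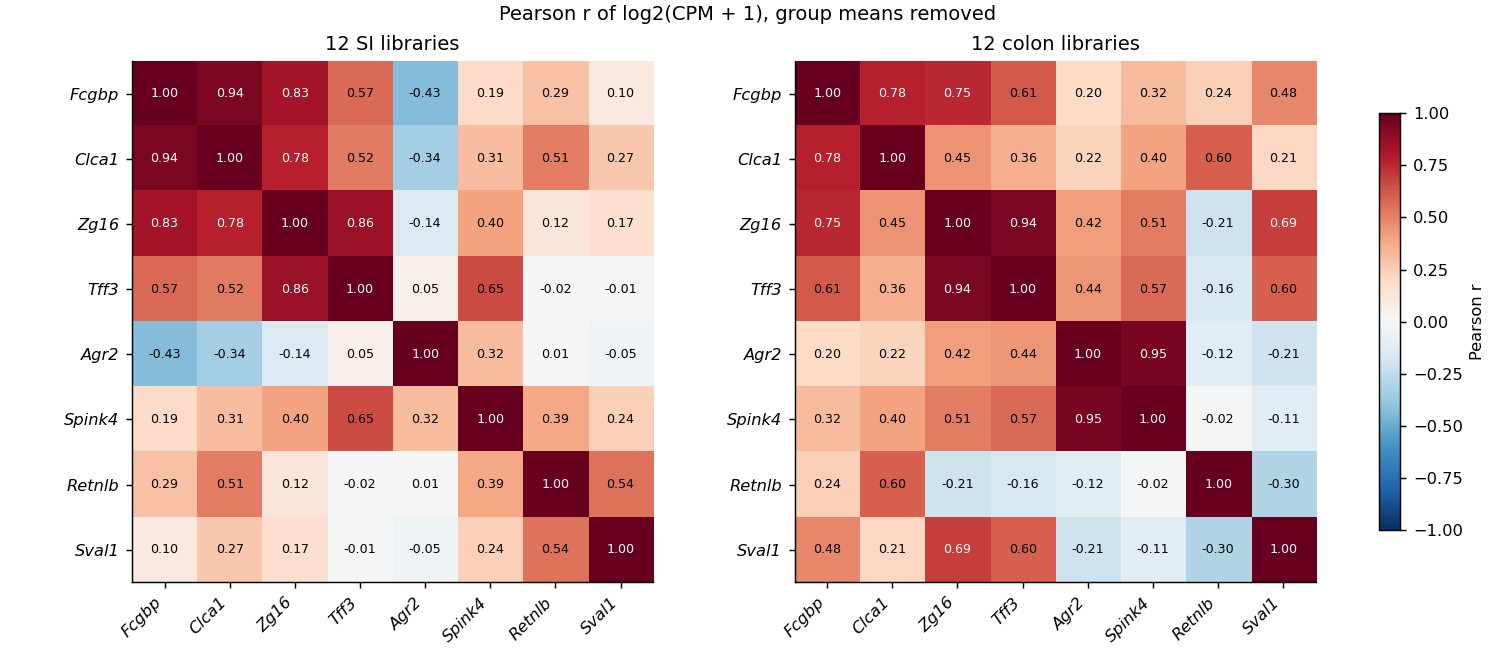
The 2 matrices give Pearson's r between the 8 genes, over 12 SI libraries on the left and 12 colon libraries on the right, on a colour scale from -1 to 1. Fcgbp, Clca1, Zg16 and Tff3 form a red block in SI, Fcgbp is also red with these 3 in colon at 0.61 to 0.78, and Zg16 with Tff3 and Agr2 with Spink4 reach 0.94 and 0.95 there.

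The spread between libraries also set the members apart. The SD of log2 levels within groups was least for Agr2, at 0.17 in SI and 0.19 in colon. It was widest for Retnlb, at 0.47 in SI and 1.01 in colon, and for Fcgbp it was 0.28 in SI and 0.62 in colon. SI and colon libraries of the same genotype and number, after removal of group means, had an r of 0.71 for Tff3, 0.67 for Clca1 and 0.61 for Retnlb over 12 pairs, and of 0.08 for Sval1. Sex, shared by the same numbers in all groups, gave 0 of 8 members called in SI, where 0.0554% of genes tested were called. There 1 member, Sval1, had an unadjusted p under 0.05, as did 1098 of 16236 genes tested. DESeq2 called 0 of 8 and 0.164% of genes with an adjusted p. In colon 0 of 8 were called against 0.294%. An unadjusted p under 0.05 was found for 3 members, Fcgbp, Agr2 and Spink4, and for 3471 of 16997 genes tested. Values were negative, female against male, for 7 of the 8 in colon, with Fcgbp at -0.60 (SE 0.263, adjusted p 0.224), Agr2 at -0.27 (SE 0.0953, adjusted p 0.167) and Spink4 at -0.29 (SE 0.0967, adjusted p 0.161), and DESeq2 called 1 of 8, Agr2, and 3.74% of genes with an adjusted p.

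Among 9019 genes with a mean of at least 10 CPM, those most like each member over 24 libraries were named by a rule. The closest to Fcgbp was its neighbour 9530053A07Rik, with an r of 0.99 and group means from 669 to 14500 CPM, and the next was Capn9 at 0.91. Whether Fcgbp and that neighbour share reads was not tested. Zg16 went with Lypd8, which binds flagellated bacteria, at 0.94 and with Hsd17b2 at 0.92, and Tff3 with Mgst3 at 0.92 and Ctsl at 0.89. Clca1 was most like Acvr1 at 0.84 and D1Ertd622e at 0.82. Agr2 went with Praf2 at 0.82, and Spink4 with Gm5915 at 0.82 and Myl6 at 0.80. Retnlb had Chrm3, a muscarinic acetylcholine receptor, at 0.82 and Marveld2 at 0.71. Sval1 had Cdkn1a, a cell cycle inhibitor, and Rep15, both at 0.77.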

How the data were processed

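Messenger RNA of sorted tdTom+ epithelial cells was sequenced as stranded single-end libraries. The authors aligned reads to GRCm38 with TopHat2 2.1.1 and deposited, for each Ensembl gene, the raw counts that featureCounts (Subread 1.5.2) gave, taken over exons by strand from primary alignments and not normalized, with 1 file per library. The authors' own tests used DESeq2 1.14.1 and were not used here. Symbols came from GENCODE M21 (GRCm38) for 44585 of 45513 genes. Same-group libraries were checked for duplicates, and 0 of 60 pairs were identical.

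The test was the two-sided quasi-likelihood F test of edgeR 4.0.16 (R 4.3.3) with TMM factors, on genes that passed filterByExpr by group. It ran in the 12 libraries of each tissue or genotype, and the product of tissue and genotype was fitted over 24. All 8 members passed the filter in every fit. Adjusted p follows Benjamini and Hochberg across the genes tested, with a threshold of 0.05 for a call. SE came from the F statistic, and 95% intervals used 10 degrees of freedom. CPM used TMM factors over 24 libraries, and TPM was computed from the counts and the Length column. The test was tested on simulated data. Alternatives were DESeq2 1.42.0, its size factors, plain library totals, other gene filters, a replicate block, sex as a covariate, 1 fit over all libraries and leaving out each library.

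Samples were grouped by the labels. The series describes 6 mice in total with SI and colon taken from each, while the labels give 6 numbers per genotype, and the study's text also gives 6 per genotype for the expression data, which would be 12 mice if each number were 1 mouse. If numbers do not mark separate mice, p-values measure the spread between libraries, which may be technical. Same-numbered SI and colon libraries of 1 genotype deviated together (r across genes from 0.168 to 0.568 in WT and from 0.159 to 0.649 in 9S/T-A). The main tests treated them as independent, and these pairs entered the tests only as the replicate block among the alternatives. The block changed a member's call in the product of genotype and tissue, as given there. The 8 members, with Muc2 and Atoh1, were named whatever their result, with the 2 genes most like each by r (1 of these is not reported here), and from each list at most the 4 genes with the smallest adjusted p and its defining genes. Members and lists were chosen with earlier results of these data known.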

Additional observations from a re-analysis of the deposited data

Results flagged for a closer look

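Retnlb stood out in 2 libraries. In WT SI replicate 7 it was at 4.95 CPM, while the other 5 libraries of that group lay between 0.905 and 2.24 CPM. In 9S/T-A colon replicate 6 it was at 891 CPM, against 217 to 432 CPM in the others. In each case the gap to the next library, as a share of the group's range (0.669 and 0.681), was above the critical value of Dixon's test for 6 samples. Chance flags about 1 in 20 groups, and 32 were tested. Leaving out any 1 library kept Retnlb uncalled between genotypes, at -1.09 to -0.42 in SI and 0.74 to 1.51 in colon.

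Sval1 is given here because its genotype difference differed between tissues, with a difference of differences of -2.11 on the log2 scale (SE 0.231, edgeR adjusted p 1.62e-05). The genotypes did not overlap in SI, where 9S/T-A was higher in 6 of 6 libraries, and overlapped in colon.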

How the results depend on the processing

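The call of Sval1 held under every alternative run, with a log2 fold change of 1.65 to 1.88 in SI and a difference of differences of -2.19 to -1.94. Leaving out 1 library gave 0 to 1 members called between genotypes in colon and 1 to 2 relative to Muc2 in SI, where Retnlb was added without 9S/T-A SI replicate 2, with 41% of all genes called. In colon relative to Muc2 it gave 2 to 3, where Agr2 was added without 9S/T-A colon replicate 7, with 80.7% of all genes called. Same-numbered WT and 9S/T-A libraries did not all deviate together (lowest r -0.0949 in SI and 0.0197 in colon). Their mean r was 0.192 in SI and 0.412 in colon, against -0.0348 and -0.0665 for libraries of different numbers. The main genotype tests used no such pairs, and with the replicate block Spink4 in colon had an edgeR adjusted p of 0.00207. The block gave 2 members called for the product of genotype and tissue and 4 relative to Muc2 in colon (Zg16, Tff3, Retnlb and Sval1), where 78.7% of genes tested were called, and DESeq2 gave 1 for sex in colon, with 3.74% of genes called. The block changed no other call of a member. Sign changed for the following values, of which Spink4 of colon over SI was called in both genotypes. Spink4 of colon over SI in 9S/T-A was 0.15 with plain library totals, and its log2 ratio of mean levels was 0.17 in WT and 0.65 in 9S/T-A by TPM. Agr2 in the product was 0.095 with plain library totals, 0.017 with no gene filter, 0.013 with a mean of at least 10 counts, and -0.093 to 0.061 when 1 library was left out. Such fits ran from -0.015 to 0.33 for Fcgbp, -0.06 to 0.42 for Clca1 and -0.28 to 0.014 for Zg16 in the product. For sex they ran from -0.15 to 0.038 for Fcgbp and -0.063 to 0.085 for Clca1 in SI, and from -0.41 to 0.48 for Retnlb and -0.069 to 0.14 for Sval1 in colon. Relative to Muc2 they ran from -0.074 to 0.099 for Spink4, -0.14 to 0.061 for Agr2, -0.016 to 0.073 for Fcgbp and -0.14 to 0.01 for Tff3 in SI, and from -0.23 to 0.11 for Fcgbp and -0.14 to 0.35 for Clca1 in colon. Spink4 relative to Muc2 in SI was -0.0064 with the block. The causes were not tested. Over all genes, DESeq2 called 788 in SI, 238 in colon and 258 for the product, and the block 477, 385 and 342, against 315, 54 and 74. Calls that were higher made up 52.1% in WT and 54% in 9S/T-A of the tissue calls, and 86.5% and 88.4% with plain library totals; for genotype in SI 53.3% became 29.1%. The members had at least 25 counts in each library. Retnlb in SI was the lowest, at 40 to 155 counts in WT and 25 to 92 in 9S/T-A, and the effect of depth was not tested.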
